A study of Mus musculus with 8 samples.

Results

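The Parp family of ADP-ribosyltransferases and the ubiquitin ligase partner Dtx3l were examined in mouse bone marrow dendritic cells exposed overnight to heat-killed Prevotella. The members were the rows of the deposited count table named Parp1, Parp2, Parp3, Parp8, Parp9, Parp10, Parp11, Parp12, Parp14 and Dtx3l, 10 of its 55376 genes. They were chosen by their counts in these same PM and PH samples, scaled by library, so their differences between the bacteria are described here and support nothing further. The cells received P. melaninogenica (PM, 3 samples) or P. heparinolytica (PH, 3 samples), and the PM and PH samples shared the sample ids 1, 3 and 4. All samples were dendritic cells grown from bone marrow, and the sources used here do not state strain, age or growth factors. No unstimulated cells were analysed here, so each difference is between the bacteria and not against rest.

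Parp enzymes transfer ADP-ribose from NAD+ onto proteins and nucleic acids. Parp1, Parp2 and Parp3 bind broken DNA and act in its repair, Parp1 and Parp2 by building chains of poly-ADP-ribose and Parp3 by adding single units. Parp9, Parp10, Parp11, Parp12 and Parp14 are known as interferon-inducible genes, most of them attach single ADP-ribose units or, like Parp9, have little activity alone, and several restrict viruses. Parp9 works in a complex with Dtx3l, an E3 ubiquitin ligase of the deltex family, and Parp14 was described in mouse lymphocytes as a cofactor of the transcription factor STAT6. Dendritic cells respond to bacterial products partly through type I interferon, which they make and sense themselves. For the account below, Parp9, Dtx3l, Parp14, Parp12, Parp10 and Parp11 form the interferon-responsive group, Parp1, Parp2 and Parp3 form the repair group, and Parp8, a mono-ADP-ribosyltransferase, stands alone.

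Total counts ranged from 21192990 to 38231719 in the PM samples and from 11624367 to 40233148 in the PH samples, and all 10 members were among the 14382 genes with enough counts to be tested. The shallowest sample, PH replicate 3, also had 4013 CPM of the predicted gene Gm42418, against 867 to 1462 CPM in the other samples. Of 12 dendritic cell markers, 11 were tested, and Cd74 (3817 ± 373 CPM with PM and 3793 ± 444 CPM with PH, SD, n = 3 each) and Ccr7 (3911 ± 397 CPM with PM and 4049 ± 388 CPM with PH) were the highest by length-scaled level. The dendritic list summed to 12110 to 14310 CPM with PM and 12760 to 15390 CPM with PH. Siglech (plasmacytoid dendritic cells), C1qa (macrophages) and Ncr1 (natural killer cells) were near 0, with at most 1, 4 and 3 reads in any sample, while the macrophage-associated genes Adgre1 and Csf1r had at least 4821 and 4415 reads in every sample.

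Promoter sequences are shown first because interferon acts on such genes through the interferon-stimulated response element (ISRE). The sequences come from RefSeq (GRCm38.p6, the build of the counts) and span 250 bases before to 50 bases after an annotated start, read in the direction of the gene. Of the 10 members 7 had an entry, as did 6 of 7 other family genes. Parp9, Parp10, Parp14 and Tnks were not analysed here for promoter motifs. Capitals mark the ISRE core, spelled GAAA, any 2 bases, GAAA, or on the other strand TTTC, any 2 bases, TTTC, which was found in 3.44% of 32851 promoters of this length. Dtx3l and Parp12 are shown as the interferon-responsive members with the widest differences among those matched, Parp11 and Parp4 as the family genes that hold the core, and Parp1 as a repair member.
Dtx3l (chr16:35938978-35939277, minus strand): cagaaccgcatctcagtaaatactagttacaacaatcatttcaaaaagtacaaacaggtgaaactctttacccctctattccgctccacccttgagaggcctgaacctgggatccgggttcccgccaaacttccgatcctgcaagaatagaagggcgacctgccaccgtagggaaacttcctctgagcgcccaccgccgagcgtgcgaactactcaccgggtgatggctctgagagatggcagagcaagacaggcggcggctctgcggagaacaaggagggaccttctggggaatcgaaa
Parp12 (chr6:39118300-39118599, minus strand): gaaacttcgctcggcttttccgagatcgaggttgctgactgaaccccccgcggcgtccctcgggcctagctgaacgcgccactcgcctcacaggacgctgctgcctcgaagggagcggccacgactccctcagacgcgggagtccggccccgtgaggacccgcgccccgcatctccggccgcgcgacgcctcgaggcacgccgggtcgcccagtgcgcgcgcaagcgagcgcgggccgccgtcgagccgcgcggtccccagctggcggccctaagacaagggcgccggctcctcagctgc
Parp11 (chr6:127446590-127446889, plus strand): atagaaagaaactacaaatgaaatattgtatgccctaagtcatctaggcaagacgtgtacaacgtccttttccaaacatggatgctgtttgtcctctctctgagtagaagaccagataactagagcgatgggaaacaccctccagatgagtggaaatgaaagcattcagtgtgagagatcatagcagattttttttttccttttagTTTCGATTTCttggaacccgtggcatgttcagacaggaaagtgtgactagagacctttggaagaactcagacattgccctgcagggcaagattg
Parp4 (chr14:56575369-56575668, plus strand): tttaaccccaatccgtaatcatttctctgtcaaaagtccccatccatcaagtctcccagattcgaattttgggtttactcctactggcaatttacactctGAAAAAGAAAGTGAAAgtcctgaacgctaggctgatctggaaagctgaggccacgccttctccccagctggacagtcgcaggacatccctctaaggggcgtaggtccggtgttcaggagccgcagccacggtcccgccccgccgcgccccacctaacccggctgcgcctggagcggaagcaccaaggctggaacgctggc
Parp1 (chr1:180568641-180568940, plus strand): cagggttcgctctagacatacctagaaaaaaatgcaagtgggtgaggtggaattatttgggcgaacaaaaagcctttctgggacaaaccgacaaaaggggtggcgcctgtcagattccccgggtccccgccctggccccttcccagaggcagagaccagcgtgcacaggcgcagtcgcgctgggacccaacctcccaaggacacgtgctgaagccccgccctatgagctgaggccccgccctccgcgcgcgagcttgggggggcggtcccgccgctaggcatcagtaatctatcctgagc

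The core occurred once upstream of Parp11, 44 bases before the start, and as 2 overlapping copies in the Parp4 promoter, 150 and 144 bases before the start. It was in neither the Dtx3l nor the Parp12 sequence, nor in those of Parp1, Parp2, Parp3 or Parp8. Parp11 has another start further downstream whose promoter lacks the core. The STAT dimer motif GAS (TTC, any 3 bases, GAA, the same on each strand, in 8.30% of promoters) was found upstream of Parp11, 37 bases before the same start and overlapping the ISRE core, and in the promoter of Parp16. These are matches of letters in a short window, and a missing match says nothing of binding elsewhere.

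Cells given PM had lower levels of 5 of the 6 interferon-responsive members than cells given PH, while the repair members and Parp8 had overlapping levels. In the fit across all genes, 5 of 10 members were lower with PM and 0 were higher at the 0.05 threshold on adjusted p in edgeR, beside 1.64% of all tested genes lower and 0.702% higher. The same counts, 5 lower and 0 higher, came from the fit with the sample id as a block, beside 8.27% of all tested genes lower and 7% higher (15.3% in either direction). The median log2 fold change, PM over PH, was -0.27 over the members and 0.01 over all tested genes. Since bulk RNA was measured, fewer cells of a type and less RNA per cell cannot be told apart. Values are in CPM, read counts scaled to a common library size with TMM factors, given for replicates 1, 3 and 4 in that order.

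Parp14 had the widest difference. Its levels were 85.8, 86.4 and 94.5 CPM in PM samples, against 199.4, 170.9 and 199.8 CPM in PH samples. The PM samples lay close together and all far below the lowest PH sample, PH replicate 3. The log2 fold change was -1.10 ± 0.08 (SE), a level 53.3% lower with PM, and within the shared ids it was -1.22, -0.98 and -1.08.

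Parp9 and Dtx3l, the partners of 1 complex, differed alike. Parp9 was at 48.4, 53.0 and 61.5 CPM in PM samples, against 80.0, 81.2 and 87.0 CPM in PH samples. Dtx3l was at 63.7, 75.1 and 84.9 CPM in PM samples, against 110.5, 122.9 and 122.5 CPM in PH samples. For each gene replicate 1 was the lowest of its treatment, and every PM sample lay below every PH sample. The log2 fold changes were -0.605 ± 0.089 for Parp9 and -0.67 ± 0.10 for Dtx3l, 34.3% and 37.0% lower with PM. The adjusted p by edgeR was 0.00919 for Parp9 and 0.0108 for Dtx3l, or 3.68e-10 and 2.33e-11 with the block. In unblocked fits, Parp9 missed the threshold without PH replicate 4 (adjusted p = 0.0616 by edgeR). Dtx3l did so without PM replicate 3 (0.0527), PH replicate 3 (0.0514) or PH replicate 4 (0.0673). On the length-scaled TPM scale, the ratio of Dtx3l to Parp9 was 0.850 ± 0.032 with PM and 0.889 ± 0.0435 with PH (SD, n = 3), with overlapping ranges. The ratio of Parp14 to Parp9 was 0.787 ± 0.056 with PM and 1.10 ± 0.09 with PH, and these ranges did not overlap.

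Parp12, a zinc finger mono-ADP-ribosyltransferase, was at 41.1, 39.25 and 44.6 CPM in PM samples, against 69.2, 66.4 and 74.2 CPM in PH samples. Its difference varied little over the ids, at -0.75, -0.76 and -0.735 on the log2 scale, and -0.75 ± 0.07 (SE) in the fit. Parp10, another mono-ADP-ribosyltransferase, was at 62.4, 55.1 and 58.3 CPM in PM samples, against 81.5, 73.9 and 77.9 CPM in PH samples. All PM samples were below all PH samples, by -0.41 ± 0.07 on the log2 scale, 24.8% lower with PM. Its adjusted p by edgeR was 0.0155, or 4.36e-07 with the block. In unblocked fits, Parp10 missed the threshold without PM replicate 3 (adjusted p = 0.0777 by edgeR), PM replicate 4 (0.0913), PH replicate 1 (0.0529) or PH replicate 4 (0.0930).

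Parp11, whose protein carries a WWE domain that binds ADP-ribose, was the exception in its group. It was at 23.2, 25.7 and 24.97 CPM in PM samples, against 27.7, 26.3 and 26.25 CPM in PH samples. The PM samples were all below the PH samples but by little, and the log2 fold change of -0.12 ± 0.07 (95% interval -0.28 to 0.04) did not pass the threshold. With it, 6 members had PM samples all below PH samples, as had 9.28% of all genes tested, and 0 members had them all above, as had 10.1%. The other 4 overlapped, as did 80.6%.

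The repair members had levels that overlapped between the bacteria. Parp1, the main sensor of DNA strand breaks, was at 66.2, 63.5 and 65.4 CPM in PM samples, against 63.6, 66.6 and 67.9 CPM in PH samples. Its log2 fold change was -0.02 ± 0.055 with a 95% interval of -0.15 to 0.10, so a difference as wide as that of Parp10 lay outside the interval. Parp2 was at 28.3, 26.9 and 27.7 CPM in PM samples, against 28.4, 26.25 and 25.7 CPM in PH samples, with a log2 fold change of 0.045 ± 0.071 (interval -0.115 to 0.205). None of the 3 repair members passed in edgeR, 0 had an unadjusted p under 0.05, and DESeq2 called 0.

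Parp3 and Parp8 varied more with the sample id than with the bacterium. Parp3 was at 145.5, 184.1 and 173.8 CPM in PM samples, against 146.5, 197.8 and 176.3 CPM in PH samples. Parp8 was at 38.0, 47.4 and 46.7 CPM in PM samples, against 43.0, 53.9 and 48.25 CPM in PH samples. For both genes id 1 was lowest and id 3 highest within each treatment. Their log2 fold changes were -0.05 ± 0.12 for Parp3 and -0.13 ± 0.11 for Parp8, or -0.04 ± 0.05 and -0.13 ± 0.06 with the sample id in the model. Without PM replicate 1 and PH replicate 3, whose names match 2 libraries each, the estimates were 0.14 for Parp3 and 0.03 for Parp8, an omission that takes away the lowest PM and the highest PH sample of Parp3 and of Parp8. Within the ids 1, 3 and 4 the log2 ratios were -0.01, -0.10 and -0.02 for Parp3 and -0.18, -0.185 and -0.05 for Parp8, all below 0.

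**Figure D1:**
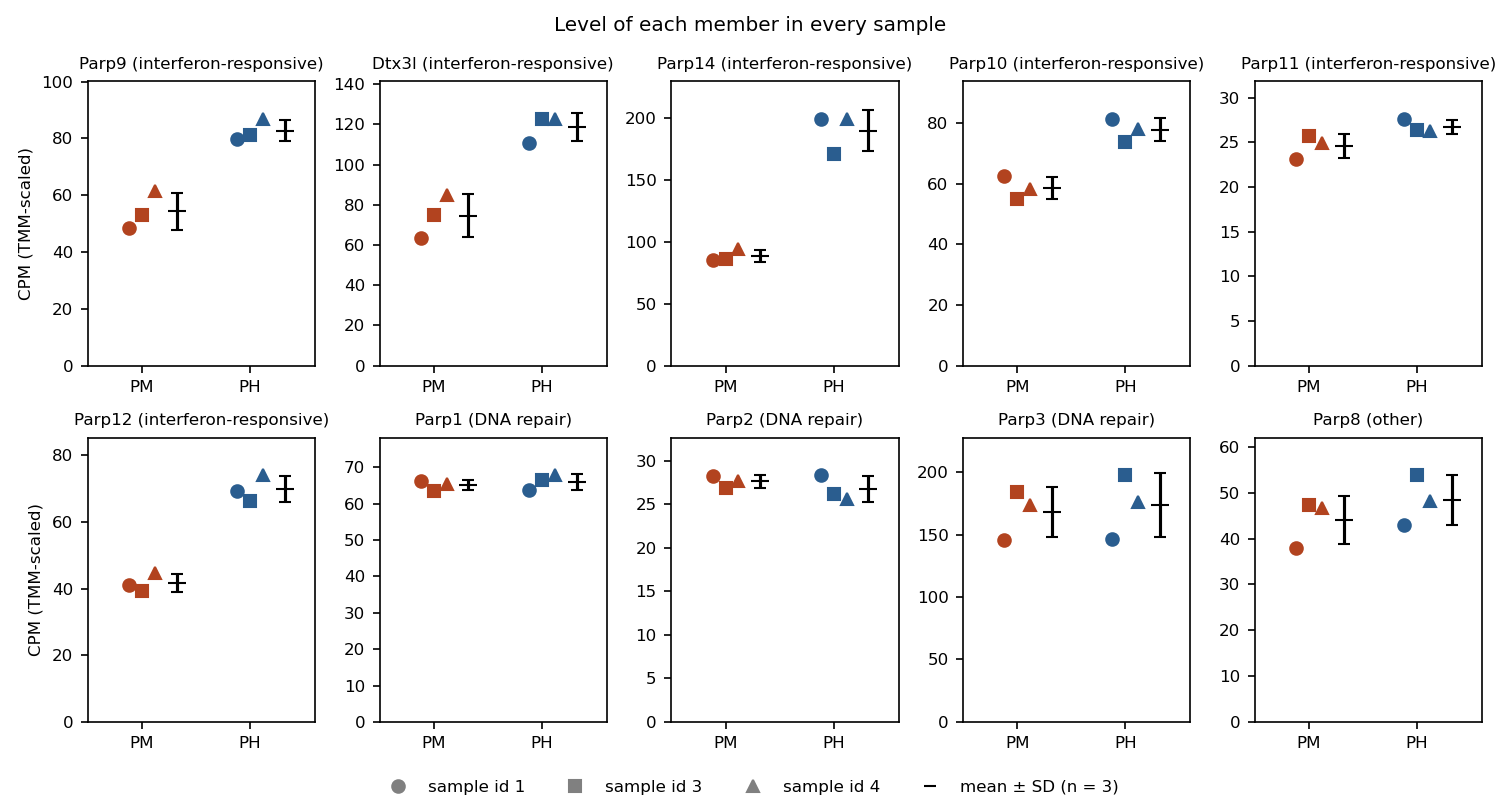
Level of each member in CPM (vertical axes, from 0) in PM samples and PH samples, with marker shapes for the sample ids and black bars for mean ± SD. Parp9, Dtx3l, Parp14, Parp10 and Parp12 have PM points clearly below PH points, Parp11 by little, and Parp1, Parp2, Parp3 and Parp8 overlap.

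Scaled by exon length, the members also changed order. Parp3 led in each treatment, at 113 ± 15.6 TPM with PM and 117 ± 17.7 TPM with PH (SD, n = 3), and its lowest sample was above every other member. Parp11 was last, at 10.9 ± 0.798 TPM with PM and 11.9 ± 0.264 TPM with PH. Parp14 ranked 9 of 10 with PM, at 26.4 ± 1.88 TPM, and 2 of 10 with PH, at 56.4 ± 5.28 TPM. With PM, neighbours from Parp10 (38.0 TPM) down to Parp14 overlapped in their ranges, so no 2 neighbours among these 8 can be ordered. Members further apart can be: the lowest Parp10 and Parp1 samples (36.1 and 36.5 TPM) lay above the highest samples of Parp2, Parp8, Dtx3l, Parp12 and Parp14 (28.5 to 33.1 TPM). With PH, the 5 members from Parp14 to Dtx3l (45.6 ± 3.15 TPM) overlapped in turn and all lay above Parp1 (37.5 ± 1.74 TPM), Parp8 (33.4 ± 3.84 TPM) and Parp2 (31.1 ± 1.34 TPM). The summed level of the 6 interferon-responsive members was 155 to 181 TPM with PM and 252 to 278 TPM with PH. The repair members summed to 164 to 193 TPM with PM and 166 to 200 TPM with PH. The ratio of the interferon-responsive to the repair sum was 0.844 to 0.956 in PM samples and 1.26 to 1.57 in PH samples.

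**Figure D2:**
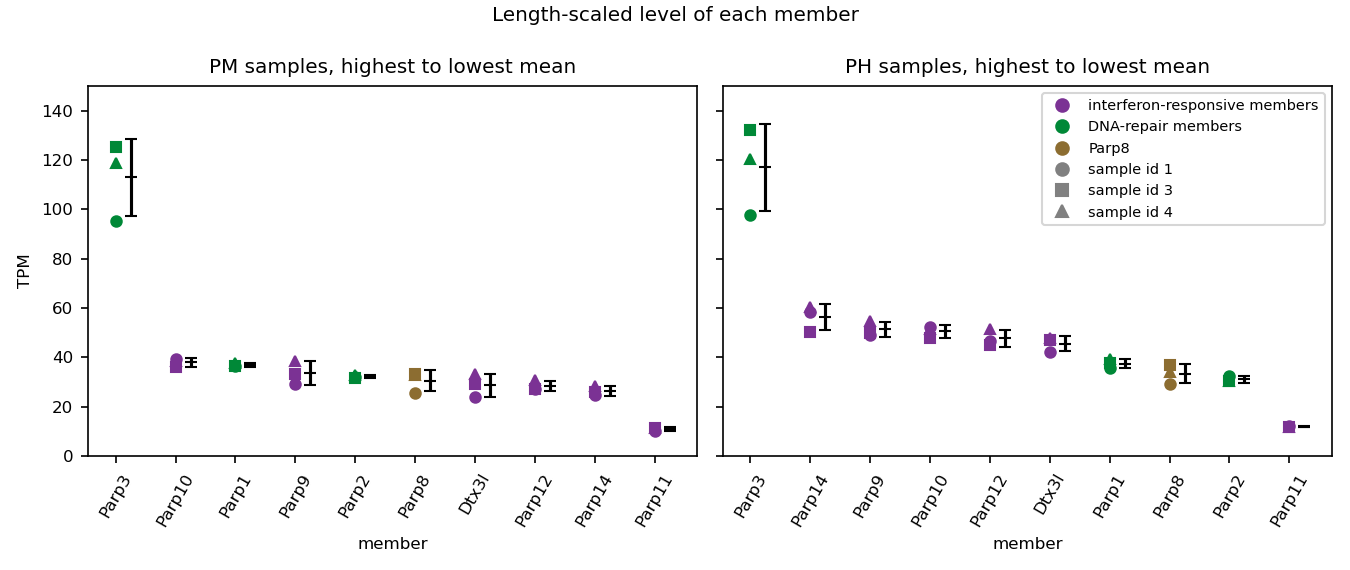
TPM of each member (vertical axis) ordered by mean within PM samples and within PH samples, points for the sample ids and black bars for mean ± SD. Interferon-responsive members other than Parp11 stand above Parp1, Parp8 and Parp2 with PH and mix with them with PM.

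Parp14, Dtx3l and Parp9 lie together on chromosome 16 of GRCm38, and the other members are dispersed. Parp14 spans 35832874 to 35871544 on the minus strand, Dtx3l 35926511 to 35939151 on the minus strand and Parp9 35938470 to 35972605 on the plus strand. Dtx3l and Parp9 are divergent neighbours that share 682 bases of span and 367 exonic bases, 6.41% of the exons of Dtx3l and 10.3% of those of Parp9. The libraries mark strand but the strand setting of the counting is not given. Whether reads from this overlap count for Dtx3l, Parp9, both or neither is therefore not known. Within 200 kb of the 3 genes the table held 19 other genes, of which 8 were tested and 0 passed by edgeR, against 2.34% of all genes called in either direction, with 3 at an unadjusted p under 0.05 and 1 by DESeq2. With the block 2 of the 8 were lower, against 8.27% of all genes lower in that fit. They were Fam162a at -0.31 ± 0.21 (adjusted p = 0.601, or 9.18e-04 with the block by edgeR) and the stefin gene Stfa2l1 at -0.465 ± 0.182 (0.313, or 0.0119 with the block). Slc49a4, at -0.17 ± 0.07 (adjusted p = 0.324 by edgeR), had all PM samples below the PH samples. Kpna1, an importin gene downstream of Parp9, had a log2 fold change of 0.04 ± 0.06, and Hspbap1, the neighbour of Parp14 on the other side, -0.09 ± 0.10 (adjusted p = 0.850 and 0.778 by edgeR). The lowest adjusted p of the 8 was that of the predicted gene Gm15564, named after its values were seen, at 241 ± 19.4 CPM with PM and 185 ± 23.4 CPM with PH (log2 fold change 0.39 ± 0.10, adjusted p = 0.110 by edgeR). Of the members elsewhere, Parp12 (39086410 to 39118349, minus strand) and Parp11 (127446840 to 127494261, plus strand) are both on chromosome 6, far apart. Parp10 is on chromosome 15 (76233003 to 76243441, minus strand), Parp1 on chromosome 1 (180568929 to 180601254, plus strand), Parp2 on chromosome 14 (50807841 to 50821301, plus strand), Parp3 on chromosome 9 (106470322 to 106476949, minus strand) and Parp8 on chromosome 13 (116854820 to 117025522, minus strand).

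**Figure D3:**
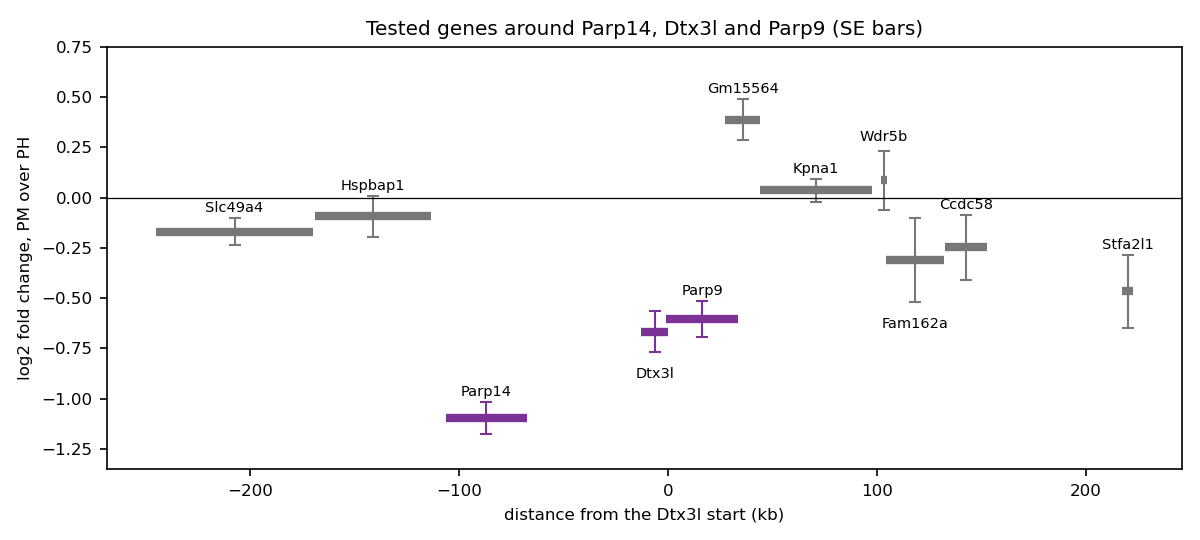
Log2 fold change, PM over PH (vertical axis, bars are SE), of the tested genes around Parp14, Dtx3l and Parp9, drawn over their span in kb from the Dtx3l start. The 3 members lie at -1.10, -0.67 and -0.605, and the 8 other tested genes did not pass the threshold without the block.

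Profiles over the 6 samples were compared by the root mean square difference of log2 CPM after centring each gene, where 0 is an identical pattern. The nearest pair among the members was Parp3 and Parp8 at 0.060, followed by Parp9 and Dtx3l at 0.061 and Parp1 and Parp2 at 0.080. Parp11 was nearest to Parp1 (0.094), and within its own group its distances ran from 0.175 to Parp10 to 0.494 to Parp14. Parp10 too was nearer to Parp1 (0.207) than to Parp14 (0.352). Outside the family, the genes most like Parp14 were Slfn5 (0.061), Ms4a6c (0.069), Slfn8 (0.071), Irgm1 (0.078) and Trim30a (0.082). Each was lower with PM, by log2 fold changes from -1.12 for Trim30a to -1.19 for Irgm1 and Slfn8. Genes near a member were picked by their pattern over these same 6 samples. A difference like that of the member therefore follows from the choice, here and for Dtx3l and Parp1 below. Irgm1 is an immunity-related GTPase, and the Slfn, Ms4a and Trim30 genes have close paralogs that may share reads. Genes with a pattern close to that of Dtx3l were the peptide transporter gene Tap1 and Ndrg1 (0.056 each), Dmwd (0.067) and Enpp2 (0.075), all with PM samples below PH samples. For Parp1 they were Cdk10, Sort1, Kremen1, Bap1 and Hs6st1 (0.017 to 0.019), whose log2 fold changes lay between -0.045 and 0.002.

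None of the 7 other ADP-ribosyltransferase genes listed here differed detectably between the bacteria. Of these 7, 0 passed in edgeR, beside 2.34% of all tested genes in either direction. Among them 0 had an unadjusted p under 0.05, DESeq2 called 0, and the median log2 fold change was -0.06. Zc3hav1, which encodes the antiviral RNA-binding protein ZAP, had the highest level of these by length, at 291 ± 11.8 CPM with PM and 305 ± 13.8 CPM with PH, and a log2 fold change of -0.07 ± 0.07 (adjusted p = 0.730 by edgeR). Tnks2, a tankyrase that builds poly-ADP-ribose, was at 153.5 ± 8.22 CPM with PM and 154.4 ± 8.34 CPM with PH. Parp4, the vault enzyme whose promoter holds the ISRE core, was at 90.6 ± 12.4 CPM with PM and 97.0 ± 4.20 CPM with PH (-0.10 ± 0.10). Tiparp, a target of the aryl hydrocarbon receptor, Tnks, Parp6 and Parp16 had log2 fold changes between -0.09 and 0.15.

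**Figure D4:**
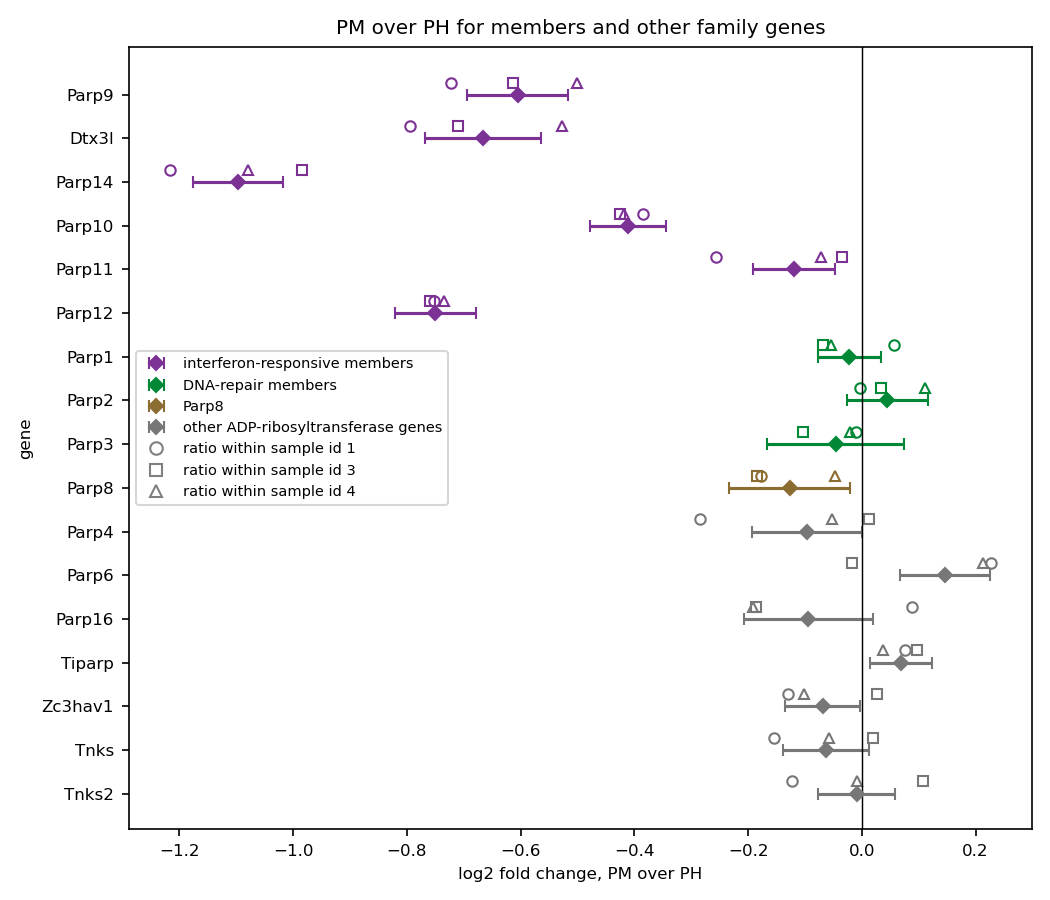
Log2 fold change, PM over PH (horizontal axis), of the 10 members and 7 other ADP-ribosyltransferase genes, with diamonds and bars for the fitted value ± SE and open markers for the ratio within each sample id. Parp14, Parp12, Dtx3l, Parp9 and Parp10 lie apart from 0 at every id, from -1.22 to -0.38, while the other genes lie near 0.

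Among factors tied to these proteins, Irf9 was lower with PM and Stat6 had overlapping levels. Irf9, a DNA-binding factor of type I interferon signalling, was at 67.4 ± 6.08 CPM with PM, against 97.3 ± 0.415 CPM with PH (log2 fold change -0.53 ± 0.07, adjusted p = 0.00708 by edgeR). Stat2, a transcription factor of the same pathway, was at -0.45 ± 0.10 (adjusted p = 0.0646, or 8.83e-09 with the block). Stat6 was at 336.9 ± 4.24 CPM with PM and 332.9 ± 3.76 CPM with PH (0.02 ± 0.06, adjusted p = 0.940 by edgeR). The deltex genes were mixed. Dtx3 was at 0.28 ± 0.14 (adjusted p = 0.467 by edgeR, or 2.31e-04 with the block) and Dtx4 at 0.23 ± 0.11 (0.440, or 0.00185 with the block). Dtx2 was at -0.15 ± 0.07 (adjusted p = 0.396 by edgeR, or 0.0458 with the block), with all PM samples below the PH samples. Dtx1 was at -0.13 ± 0.28 (adjusted p = 0.897 by edgeR). Dtx3 also passed the threshold without a low-count filter (adjusted p = 0.0238 by edgeR) and without PM replicate 1 and PH replicate 3 (0.0280).

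Of 16 genes that remove or read ADP-ribose, 15 were tested and 0 passed in edgeR, beside 2.34% of all tested genes. Of the 15, 2 had an unadjusted p under 0.05 and DESeq2 called 1. With the block 1 was lower, beside 8.27% of all tested genes. That 1 was H2afy, which encodes the macroH2A1 histone with an ADP-ribose-binding macrodomain, at 228.5 ± 7.99 CPM with PM and 272.7 ± 12.9 CPM with PH (-0.255 ± 0.064, adjusted p = 0.0955, or 8.97e-05 with the block by edgeR). Nudt9, an ADP-ribose pyrophosphatase, was at -0.05 ± 0.08. Parg, the main poly-ADP-ribose glycohydrolase, was at 36.6 ± 0.538 CPM with PM and 36.2 ± 2.25 CPM with PH. Hpf1, the cofactor of Parp1 and Parp2 in serine ADP-ribosylation, was at 26.1 ± 2.07 CPM with PM and 24.9 ± 0.621 CPM with PH.

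Of 24 genes of NAD synthesis and use 20 were tested. In edgeR 1 was higher and 0 lower with PM, beside 0.702% and 1.64% of all tested genes. Haao, a dioxygenase of the kynurenine route to NAD, was at 15.98 ± 1.93 CPM with PM, against 9.25 ± 1.83 CPM with PH (log2 fold change 0.80 ± 0.16, adjusted p = 0.0358 by edgeR). This call was lost without PM replicate 3 (adjusted p = 0.128 by edgeR), PM replicate 4 (0.158), PH replicate 1 (0.058), PH replicate 3 (0.0965) or PH replicate 4 (0.0712). With the block 2 were higher and 3 lower, beside 7% and 8.27% of all tested genes. Among the lower 3 was the NAD-consuming ectoenzyme Cd38, at 136 ± 38.9 CPM with PM and 203 ± 47.3 CPM with PH (-0.58 ± 0.21, adjusted p = 0.271, or 6.12e-11 with the block by edgeR). Nampt, the rate-limiting enzyme of NAD salvage, was at 333 ± 7.35 CPM with PM and 387 ± 26.9 CPM with PH (-0.215 ± 0.070, adjusted p = 0.211, or 0.00160 with the block). The deacetylase Sirt2 was at 0.14 ± 0.06 (adjusted p = 0.422, or 0.0491 with the block).

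Of 24 genes of base excision and single-strand break repair, the pathway served by Parp1, 0 passed in edgeR, beside 2.34% of all tested genes. Of these 24, 3 had an unadjusted p under 0.05 and DESeq2 called 1. The median log2 fold change was -0.005, and with the block 1 was higher and 2 lower, beside 7% and 8.27% of all tested genes. The scaffold Xrcc1, which binds poly-ADP-ribose, was at 37.2 ± 1.59 CPM with PM and 33.0 ± 1.34 CPM with PH (adjusted p = 0.296 by edgeR). The ligase Lig1 was at 24.95 ± 0.97 CPM with PM and 31.5 ± 1.72 CPM with PH (-0.33 ± 0.07, adjusted p = 0.0553, or 3.04e-04 with the block). Pcna, the replication clamp, was at -0.03 ± 0.06 and the polymerase Polb at -0.04 ± 0.07, and Polb was at 0.02 without PM replicate 1 and PH replicate 3.

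Other markers moved with the bacterium in places, and their part in the members' differences was not tested. Of 49 cell type and cycling markers 43 were tested. In edgeR 3 were lower and 1 higher with PM, beside 1.64% and 0.702% of all tested genes. With the block 13 were lower and 3 higher, beside 8.27% and 7%. Of the 11 tested dendritic cell markers 0 passed in edgeR, and with the block 2 were lower and 1 higher. The lower 2 were Fscn1 (-0.29 ± 0.12) and Ciita (-0.19 ± 0.11). The higher 1 was Clec9a (1.25 ± 0.32), a gene of few counts. The 8 cycling genes summed to 200.4 to 238.2 CPM with PM and 227 to 275 CPM with PH. Among them Mki67, the proliferation antigen, was lower with PM by 0.38 on the log2 scale (adjusted p = 0.0195 by edgeR). The list was mixed: 6 of its 8 genes had log2 fold changes below 0, while the cyclin genes Ccnb1 (0.45, adjusted p = 0.123 by edgeR, or 0.00582 with the block) and Ccnb2 (0.29, adjusted p = 0.508) were above it. The 8 neutrophil markers summed to 330.3 to 463 CPM with PM and 444 to 550.1 CPM with PH. Among them the G-CSF receptor Csf3r was lower with PM by 0.96 on the log2 scale (adjusted p = 9.71e-04 by edgeR). Of that list 5 genes were below 0 and 3 above, Elane at 0.59 (adjusted p = 0.299 by edgeR, with all PM samples above the PH samples), Mpo at 0.18 and Ltf at 0.01. Bst2, a plasmacytoid marker that interferon also induces, was lower with PM by 0.59 on the log2 scale (adjusted p = 0.00282 by edgeR). Siglech was at 0 in all samples but 1. Of the 5 plasmacytoid markers 4 were tested, all were below 0, and 2 were lower with the block. Tcf4 was at -0.265 ± 0.062 (adjusted p = 0.0724 by edgeR, or 0.00125 with the block), with all PM samples below the PH samples. The 8 macrophage markers summed to 857 to 1251 CPM with PM and 807 to 1210 CPM with PH. The call of Mki67 was lost without PM replicate 3 (adjusted p = 0.0897 by edgeR), PM replicate 4 (0.0786), PH replicate 3 (0.0700) or PH replicate 4 (0.118).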

How the data were processed

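RNA-seq read counts per gene of 3 PM and 3 PH samples were deposited by the authors as whole numbers without normalization, with the exon length of each gene. The submitters' processing notes name GRCm38, featureCounts 1.6.4, STAR 2.5.3a and Trimmomatic. The sources used here do not state whether counting used strand, which annotation it used or how reads with several matches were treated. The series lists 8 libraries, and 2 count columns (PM replicate 1 and PH replicate 3) match 2 libraries each by name, so each column was used as 1 sample. What an id stands for (an animal, a culture) is not in the labels, so p-values reflect only how these samples vary, which may be technical variation. No columns agreed within sampling noise (chi-square per degree of freedom at least 4.99 over 15 pairs).

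From the counts, CPM (on TMM-scaled libraries) and TPM were computed. edgeR 4.0.16 (R 4.3.3) tested PM over PH on all genes passing filterByExpr (minimum count 10) with a robust quasi-likelihood fit without covariates and Benjamini-Hochberg adjustment over 14382 genes, at a threshold of 0.05. Standard errors and 95% intervals derive from that test. The reported fit was tested on simulated counts without an effect of the sample id. How it behaves with such an effect was not tested. Same-numbered PM and PH samples deviated together (correlations of 0.44, 0.32 and 0.24 for ids 1, 3 and 4 over genes), which meets the criterion for pairing by id. The reported test nevertheless has no block, and the fit with the id as a block was an alternative, as were DESeq2 1.42.0, RLE size factors, other filters and omitted samples. Members and gene lists were chosen with earlier results of these data known. Named were all members, up to 6 genes per list past the threshold with the 2 highest by TPM, and the 5 nearest profiles to Parp14, Dtx3l and Parp1; the other list genes named were picked for their role or blocked result after their values were seen. Some results under this rule are not reported here.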

Additional observations from a re-analysis of the deposited data

How the results depend on the processing

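The count of members past the threshold was 5 with the sample id block, DESeq2, RLE size factors and both other filters, and 2 to 5 when 1 sample was left out (3 without PM replicate 3 and 2 without PH replicate 4). Parp14 and Parp12 passed under all 12 alternatives. Parp9 missed without PH replicate 4 (edgeR adjusted p = 0.0616), Dtx3l without PM replicate 3, PH replicate 3 or PH replicate 4 (0.0514 to 0.0673) and Parp10 without PM replicate 3, PM replicate 4, PH replicate 1 or PH replicate 4 (0.0529 to 0.0930). The fits with 1 sample left out had no block. The causes were not tested.

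Over all genes 337 passed, against 2197 with the replicate block, 584 by DESeq2, 846 without a low-count filter, 629 without both samples whose names match 2 libraries, and 142 to 417 leaving out 1 sample. With the block the counts were 1 ADP-ribose removal gene (1 by DESeq2), 5 NAD genes, 3 break repair genes, 6 deltex, STAT and Irf9 genes and 16 markers. Break repair gave 1 by DESeq2, without a filter and with a 1 CPM filter. Without a filter, 4 deltex, STAT and Irf9 genes and 10 markers passed, and 3 NAD genes without both such samples. Leaving out 1 sample gave 0 to 1 NAD genes and 2 to 4 markers.

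Estimates near 0 changed sign. Without both such samples the log2 fold change was 0.138 for Parp3, 0.032 for Parp8, 0.06 for Nudt9, 0.023 for Polb, 0.091 for Ccr7, 0.214 for Cd3g, -0.224 for Csf1r and -0.024 for Hs6st1. Hs6st1 was also at -0.005 by DESeq2 and the 1 CPM filter and -0.004 by RLE, and Cdk10 at 0 with the block and 0.003 without a filter. Leaving out 1 sample, Parp3 ranged from -0.162 to 0.049, Tnks2 from -0.057 to 0.024, Nudt9 from -0.121 to 0.001, Cd74 from -0.087 to 0.079, Ccr7 from -0.124 to 0.018, Adgre1 from -0.251 to 0.142, Csf1r from -0.104 to 0.262, Cd3g from -0.339 to 0.151, Cdk10 from -0.026 to 0.013 and Hs6st1 from -0.023 to 0.025. Depth in PH replicate 3 limits genes of few counts.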
